A study of Homo sapiens with 8 samples.

Results

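The genes described are 10 that encode cell surface metalloproteinases and their inhibitors: the disintegrin metalloproteinases ADAM19, ADAM8, ADAM9, ADAM10, ADAM15 and ADAM17, the membrane-type matrix metalloproteinases MMP14 and MMP15, and the tissue inhibitors TIMP1 and TIMP2. They were taken by symbol from the 58302 genes of the count table, and all 10 were found. ADAM19 and MMP14 were chosen by their log2 ratios in this same comparison, where they were among the strongest falls, so their changes are given as a description without a test. The other 8 are related family members, and their p-values come from a model fitted across all genes. They and the wider gene lists below were also put together with earlier results of these data known, so those p-values and counts are not independent evidence of a direction. The libraries came from DLD1 cells, a human colorectal cancer line, stably transduced with lentivirus carrying wild-type TRMT6 and TRMT61A (OE-WT) or the empty vector (CTRL), with 2 libraries per group. For all 4 libraries the labels describe cells washed with cycloheximide, which halts translating ribosomes, and RNA from the cleared lysate, with each library sequenced in 2 lanes that the table holds together. TRMT6 and TRMT61A form the methyltransferase that places N1-methyladenosine (m1A) on tRNA. The sources do not say whether each line is 1 clone or a pool of transduced cells, so an effect of the construct and a difference between the lines cannot be told apart.

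ADAM proteins are membrane-anchored proteases that cut the extracellular part off other membrane proteins, which is called ectodomain shedding. ADAM17 releases ligands of the EGF receptor and TNF, and ADAM10 cuts Notch receptors and E-cadherin. MMP14 degrades collagen at the cell surface and activates the secreted protease MMP2 with TIMP2 as a bridge. TIMP proteins otherwise block the active site of many matrix metalloproteinases. In colorectal tumors ADAM and MMP proteases are known for the release of growth factors and for invasion.

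The proteases share a zinc-binding site in which histidine side chains hold the catalytic metal. A search of the coding sequences of the canonical GENCODE transcripts found it once in each of the 8 proteases and in neither TIMP. The coding bases of the site are shown, because they mark which genes encode the active enzymes that the changes below concern. Capitals mark the 3 histidine codons.
ADAM19: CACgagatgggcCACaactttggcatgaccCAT
ADAM8: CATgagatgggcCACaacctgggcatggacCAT
ADAM10: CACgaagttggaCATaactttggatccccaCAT
ADAM15: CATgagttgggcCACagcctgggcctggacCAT
ADAM17: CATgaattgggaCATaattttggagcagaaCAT
MMP14: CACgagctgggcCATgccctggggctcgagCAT
MMP15: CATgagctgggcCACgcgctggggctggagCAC
On GRCh38 the ADAM19 site lies in exon 11 (chr5:157505734-157505766, minus strand) and the MMP14 site in exon 5 (chr14:22843283-22843315, plus strand). The ADAM10 site is split between exons 9 and 10. Of the 33 bases, ADAM19 and ADAM8 shared 28, MMP14 and MMP15 shared 28, and ADAM19 and MMP14 shared 21. ADAM9 also holds the site and is named only.

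The 4 libraries held between 10327498 and 12379671 counts on genes, and the limit that a 0 leaves, 3 counts, equalled 0.290 CPM in the smallest library and 0.242 in the largest before TMM scaling, from counting error only. CPM is the count scaled to a common library size with TMM factors, which level the libraries on their shared genes. TRMT6 had 211 and 181 CPM in OE-WT cells against 52.6 and 55.4 in CTRL cells, and TRMT61A had 138 and 130 against 58.9 and 56.8. The labelled cell type was checked on its markers. Of 12 colorectal epithelial markers all had a count, although CDX1 had at most 1 count in a library. At an adjusted p below 0.05 in edgeR, 4 of the 11 tested were lower and 3 higher, beside 11.6% and 9.44% of all genes tested. E-cadherin (CDH1) stood at 1152 and 1138 CPM in OE-WT and 1393 and 1403 in CTRL cells, and KRT18, a keratin of simple epithelia, at 3779 and 3932 against 3213 and 3071 (log2 ratio of OE-WT over CTRL 0.30, adjusted p = 0.0051, lost with library size only and without OE-WT replicate 2, up to 0.153). Other markers moved further: KRT20, a keratin of differentiated colon epithelium, had 8.36 and 9.93 CPM in OE-WT cells against 27.1 and 25.3 in CTRL cells (-1.52, adjusted p = 7.0e-08), and CEACAM6, a surface glycoprotein, had 6.25 and 6.88 against 2.57 and 3.73 (1.06, adjusted p = 0.0020). Because fibroblasts are a known source of ADAM19, MMP14 and the TIMP proteins, fibroblast markers were read too. Of 10, 5 had no count in any library (COL1A2, COL3A1, DCN, PDGFRA and THY1), and the sum of all 10 was 5.64 and 4.52 CPM in OE-WT cells against 5.60 and 4.71 in CTRL cells. Of 9 leukocyte and endothelial markers, CD3E, MS4A1 and CDH5 had no count. The sum of all 9 was 5.34 and 4.62 CPM in OE-WT cells against 7.00 and 5.03 in CTRL cells. VWF, with 5 and 6 counts against 30 and 14, was the 1 lower gene of 3 tested, beside 11.6% of all genes. It passed the filter on low counts through the CTRL libraries, so the filter favoured a lower call. The part of these markers in the results below was not tested.

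All 10 genes passed the filter on low counts and all had a log2 ratio (the log2 fold change of OE-WT over CTRL cells) below 0, as did 48.9% of the 14133 genes tested. Leaving out ADAM19 and MMP14, which were chosen for their falls, 3 of the other 8 were lower at an adjusted p below 0.05. These were ADAM15, TIMP1 and TIMP2 in edgeR's quasi-likelihood test, and 11.6% of all genes tested were lower. Of genes whose protein begins with a hydrophobic segment, a class described further on, 33.5% were lower. None of these 8 members was higher, where 9.44% of all genes were. Also, none was higher at an unadjusted p below 0.05 or with DESeq2's Wald test. The median log2 ratio of these 8 was -0.28, and that of all genes tested was 0.01. At a raw p under 0.05 together with a log2 ratio beyond 1 in size, none of these 8 passed in either direction, and 2.25% of all genes passed among the lower and 0.899% among the higher. Both OE-WT libraries lay below both CTRL libraries for each of the 10 but ADAM9 and MMP15, a pattern that 30.2% of all genes had, and the choice fixed it for ADAM19 and MMP14. Both lay above for none, and for 29.9% of all genes. The smaller changes depended on the scaling. With library size in place of TMM factors ADAM9, ADAM10 and ADAM17 were lower in addition, and 17.3% of all genes were.

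**Figure D1:**
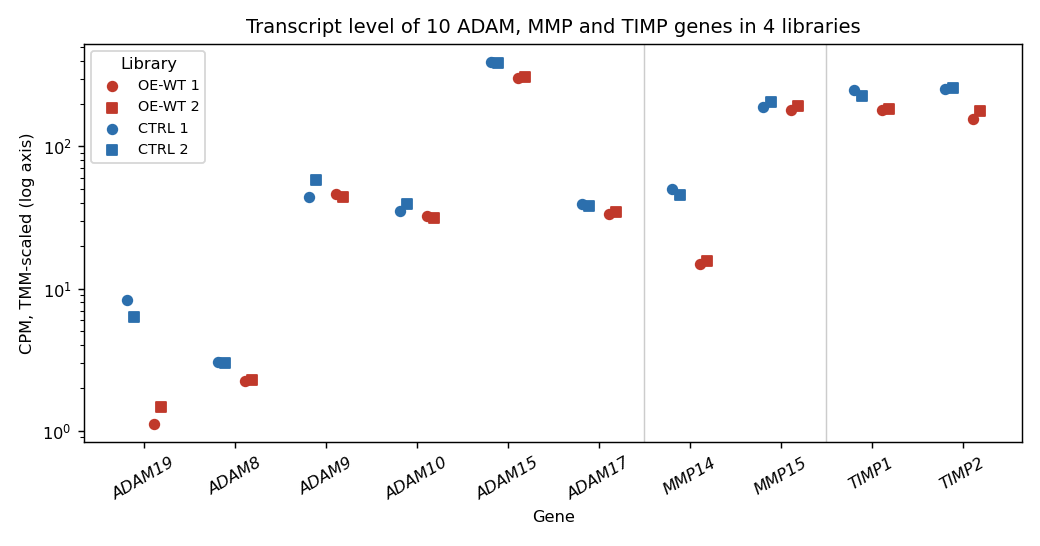
Transcript level of each gene in CPM with TMM scaling (vertical log axis) in the 2 CTRL libraries (blue) and the 2 OE-WT libraries (red), with circles for replicate 1 and squares for replicate 2. The widest gaps between the groups are at ADAM19 and MMP14, and the groups overlap at ADAM9 and MMP15.

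ADAM19 (ENSG00000135074, chr5:157395534-157575775, minus strand), named meltrin beta and able to release neuregulin, had 11 and 15 counts in OE-WT cells, and 107 and 78 in the CTRL libraries. In CPM these are 1.11 and 1.47 against 8.32 and 6.33. Both OE-WT libraries were far below both CTRL libraries. The log2 ratio was -2.49 (SE 0.28), a level 17.7% of that in CTRL cells, and it was the 8th lowest of the 14133 genes. Leaving out 1 library moved it between -2.73 and -2.28. CYFIP2, on the opposite strand, shares 62 exonic bases with ADAM19 and had a log2 ratio of 0.12 (adjusted p = 0.435).

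MMP14 (ENSG00000157227, chr14:22836560-22849041, plus strand) had 148 and 158 counts in OE-WT cells and 644 and 560 in CTRL cells, or 14.9 and 15.5 CPM against 50.1 and 45.5. The groups lay far apart and the OE-WT libraries were close together. The log2 ratio was -1.65 (SE 0.10), a level 31.9% of that in CTRL cells and the 62nd lowest of all genes tested, and leaving out 1 library moved it between -1.72 and -1.58.

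For the genes that fell most, RefSeq gives the start sites, and the bases before them are shown because both lost most of their transcript. The ADAM19 window has 250 bases (chr5:157575776-157576025, minus strand) and that of MMP14 has 225 (chr14:22836335-22836559, plus strand), which ends where the GENCODE gene begins. Capitals mark a loose form of the NF-kB motif on either strand, which is GGG and CC with any 5 bases between them, with overlapping matches joined.
ADAM19: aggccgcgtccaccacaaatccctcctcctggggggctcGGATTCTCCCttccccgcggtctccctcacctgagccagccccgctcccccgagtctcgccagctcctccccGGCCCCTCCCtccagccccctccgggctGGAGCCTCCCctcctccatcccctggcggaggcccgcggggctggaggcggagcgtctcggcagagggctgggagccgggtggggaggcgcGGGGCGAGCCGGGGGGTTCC
MMP14: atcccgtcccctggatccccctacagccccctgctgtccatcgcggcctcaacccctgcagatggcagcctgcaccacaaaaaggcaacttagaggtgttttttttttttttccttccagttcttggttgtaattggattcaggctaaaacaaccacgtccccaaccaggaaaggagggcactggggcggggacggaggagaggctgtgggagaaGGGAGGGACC
The ADAM19 window holds 5 such matches and the MMP14 window 1. Of the 27305 RefSeq promoters of 250 bases, 53.7% hold at least 1, and the median is 1. Among the other members with an entry, ADAM17 had 4, ADAM15, MMP15 and TIMP1 had 3 each, ADAM10 had 1 and ADAM8 had 0. The matches are thus not particular to the genes chosen for their falls, and their part in the changes was not tested. The 2 windows differ in composition, with 76.4% G and C before ADAM19 and 56.8% in the full 250 bases before MMP14, against a median of 58.0%. The GC box GGGCGG is absent before ADAM19 and has 1 match before MMP14, and 42.3% of promoters hold it. In the other windows it had 6 matches for ADAM15, 5 for MMP15, 3 each for ADAM8 and ADAM17, 2 for TIMP1 and 1 for ADAM10. Neither the AP-1 letters TGANTCA (6.60% of promoters) nor the TATA box letters TATAAA (11.1%) occurred in the windows of the 8 members with an entry.

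ADAM15 (ENSG00000143537, chr1:155050566-155062775, plus strand), whose disintegrin domain binds integrins, had 302.6 and 310.2 CPM in OE-WT cells and 392.2 and 384.7 in CTRL cells. The groups did not overlap, and each was tight. The log2 ratio was -0.34 (SE 0.06, adjusted p = 0.0005 in edgeR). DCST1 shares 306 exonic bases with ADAM15 on the same strand and had at most 12 counts in a library.

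The main sheddases changed less. ADAM17 (ENSG00000151694, chr2:9488486-9556732, minus strand) had 33.6 and 34.5 CPM in OE-WT cells and 39.5 and 38.2 in CTRL cells, and ADAM10 (ENSG00000137845, chr15:58588809-58749791, minus strand) had 32.6 and 31.3 against 34.98 and 39.45. Both had OE-WT libraries below CTRL libraries without overlap, and neither passed the test. Their log2 ratios were -0.19 for ADAM17 (SE 0.09, adjusted p = 0.136 in edgeR) and -0.22 for ADAM10 (SE 0.09, adjusted p = 0.104). ADAM17 shares 1645 exonic bases with IAH1 on the opposite strand, and the strand setting of the counting is not given in the sources used here. IAH1 had a log2 ratio of -0.27 (adjusted p = 0.058).

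ADAM9 (ENSG00000168615, chr8:38996754-39105445, plus strand), a sheddase with wide expression in epithelia, had 46.4 and 44.03 CPM in OE-WT cells and 43.9 and 58.1 in CTRL cells. The groups overlapped, with CTRL replicate 1 below both OE-WT libraries and CTRL replicate 2 above them. Its log2 ratio was -0.17 (SE 0.10, adjusted p = 0.252). It was 0.042 without CTRL replicate 2 and -0.36 (adjusted p = 0.0063) without CTRL replicate 1. ADAM8 (ENSG00000151651, chr10:133262420-133276868, minus strand), best known from leukocytes, had 22 and 23 counts in OE-WT cells and 39 and 37 in CTRL cells. Its log2 ratio of -0.43 had a SE of 0.28 (adjusted p = 0.290), so at this depth a change of that size could not be called.

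MMP15 (ENSG00000102996, chr16:58025754-58046901, plus strand), the closest relative of MMP14 among the members, had 180 and 191 CPM in OE-WT cells and 189.8 and 205 in CTRL cells. The groups overlapped, and the log2 ratio was -0.09 (SE 0.07, adjusted p = 0.372 in edgeR).

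TIMP2 (ENSG00000035862, chr17:78852977-78925387, minus strand) had 155 and 177 CPM in OE-WT cells and 253 and 259.6 in CTRL cells. Both OE-WT libraries were lower, and they differed from each other by more than the CTRL libraries did. The log2 ratio was -0.62 (SE 0.07, adjusted p = 1.8e-06 in edgeR). All 367 exonic bases of the noncoding gene ENSG00000267601, on the opposite strand, lie within TIMP2 exons. This gene had 396 and 438 counts in OE-WT cells against 834 and 860 in CTRL cells, a log2 ratio of -0.70 (adjusted p = 2.7e-06 in edgeR). The strand setting is not given, so whether its reads were kept apart from those of TIMP2 is not known. TIMP1 (ENSG00000102265, chrX:47582408-47586789, plus strand), which lies within the gene SYN1 on the opposite strand, had 179 and 183 CPM in OE-WT cells and 251 and 228 in CTRL cells. The groups did not overlap, and the log2 ratio was -0.40 (SE 0.07, adjusted p = 0.00018). SYN1 had at most 1 count in a library.

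**Figure D2:**
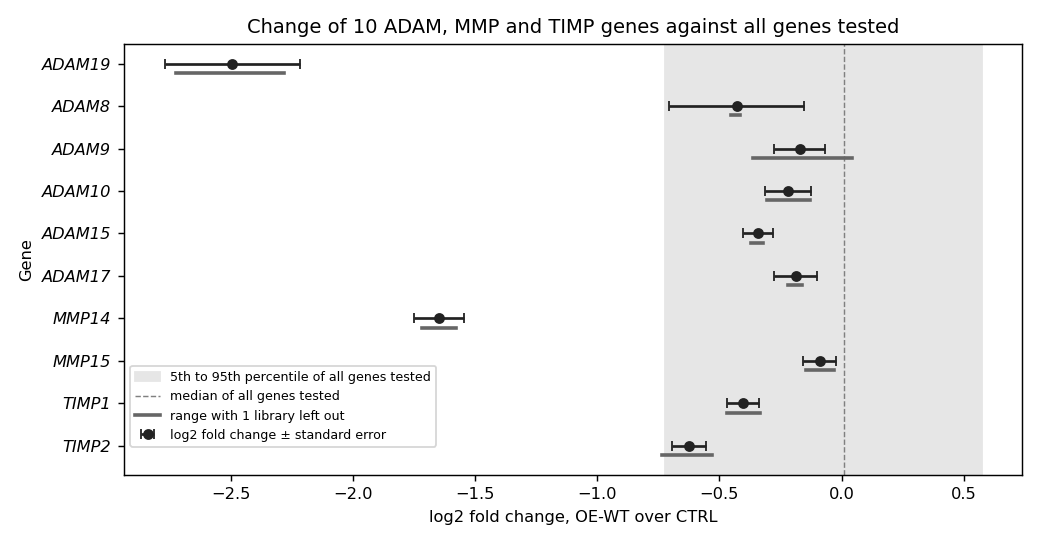
The log2 ratio, OE-WT over CTRL, of each gene with its SE (black), the range with 1 library left out (grey line) and, for all 14133 genes tested, the median (dashed) and the 5th to 95th percentiles (band, -0.72 to 0.57). ADAM19 and MMP14 lie outside the band, the other 8 inside it.

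In bulk RNA, fewer cells that express a gene and less transcript per cell cannot be told apart, which holds for every change here. Per length, as CPM per kilobase of annotated exon (RPKM), TIMP1 was the most abundant in CTRL cells, with 166 ± 11.2 RPKM (SD, n = 2). ADAM15 followed with 59.0 ± 0.80, MMP15 with 46.7 ± 2.59 and TIMP2 with 41.3 ± 0.75, and MMP14 stood at 10.33 ± 0.70. ADAM9, ADAM17 and ADAM10 lay at 2.88 ± 0.57, 2.43 ± 0.06 and 2.33 ± 0.20, an order that does not exceed the spread between libraries. Length here joins all annotated exons of a gene, with 17704 bases for ADAM9, 15964 for ADAM17 and 15979 for ADAM10. MMP14 had 4623 and ADAM15 had 6584, so the order per length and the shares below depend on the annotation. In CPM, the CTRL means were 51.0 for ADAM9 and 47.8 for MMP14. ADAM19 had 0.951 ± 0.18 and ADAM8 0.634 ± 0.0042. In OE-WT cells ADAM19 had 0.168 ± 0.034 RPKM, below ADAM8 with 0.470 ± 0.0065, so these genes changed places. This is a description, since ADAM19 was chosen for its fall.

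ADAM15 made up 86.2% and 86.6% of the summed RPKM of the 6 ADAM genes in OE-WT cells, and 87.1% and 85.9% in the CTRL libraries, while ADAM19 made up 0.270% and 0.352% against 1.58% and 1.21%. The ADAM sum was 53.3 and 54.4 RPKM in OE-WT cells against 68.4 and 68.0 in CTRL cells, and most of that difference lay in ADAM15. MMP14 made up 7.04% and 6.93% of the MMP14 and MMP15 sum in OE-WT cells against 19.4% and 16.9% in CTRL cells. TIMP2 exceeded its partner MMP14 by a ratio of 7.75 and 8.50 in OE-WT cells and 3.76 and 4.25 in CTRL cells, although both were lower. Because ADAM19 and MMP14 were chosen for their falls, that choice favoured their lower shares and the higher ratio of TIMP2. These values are a description only. The ratio of the TIMP sum to the sum of the 8 proteases was 1.503 and 1.505 in OE-WT cells against 1.73 and 1.58 in CTRL cells. That difference is close to the gap between the CTRL libraries. The ratio compares transcripts and is no measure of inhibition.

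**Figure D3:**
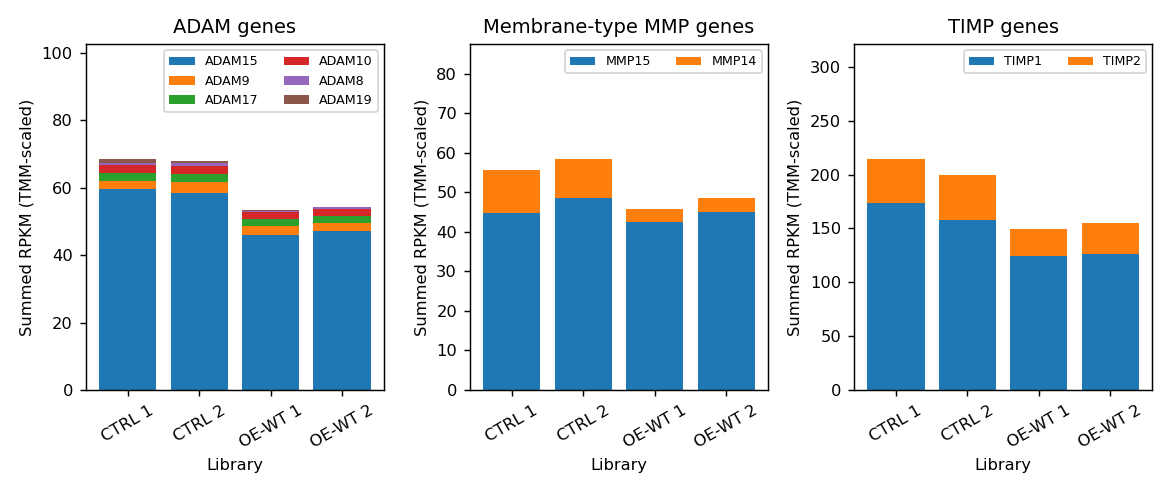
Stacked bars give the RPKM (CPM per kilobase of exon, TMM-scaled, axes from 0) of the 6 ADAM genes, of MMP14 and MMP15 and of TIMP1 and TIMP2 in each library. ADAM15, MMP15 and TIMP1 form most of each bar. The share of MMP14, a gene chosen for its fall, is 7.04% and 6.93% in the OE-WT bars against 19.4% and 16.9% in the CTRL bars.

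The rest of the families was mostly silent in these cells. Of 15 other ADAM genes 4 passed the filter and none was called. Of these, ADAM21, the highest per length, had 4.03 and 1.87 CPM in OE-WT cells against 3.73 and 2.11 in CTRL cells. Of 19 ADAMTS genes, which encode secreted relatives, 4 passed and 3 were lower, all with few counts. These 3 passed the filter through their CTRL libraries, since they did not reach it in both OE-WT libraries. The filter thus favoured a lower call, and nothing is read from their number. Over all genes tested 11.6% were lower and 9.44% higher, which holds beside each count of the lists here. ADAMTS15 had 6 and 11 counts in OE-WT cells against 29 and 27 in CTRL cells (log2 ratio -1.38, SE 0.38, adjusted p = 0.013), and this call was lost without OE-WT replicate 1 (adjusted p = 0.142) and without CTRL replicate 1 (0.051). DESeq2 gave ADAMTS15 no adjusted p, and it was not tested when each library had to hold 10 counts. ADAMTS7 and ADAMTS13, named after their values were seen, had at most 25 counts in a library. Of 21 other MMP genes 4 passed. MMP2, the protease that MMP14 activates, had no count in either OE-WT library and 1 in each CTRL library, all under the 3 counts that a 0 allows. MMP11 was lower, with 5.14 and 5.11 CPM in OE-WT cells against 8.16 and 7.96 in CTRL cells (log2 ratio -0.65, SE 0.19, adjusted p = 0.015; adjusted p from 0.0029 to 0.137 over the alternatives). MMP24, also a membrane-type enzyme, was the 1 higher gene, with 17.9 and 18.6 CPM in OE-WT cells against 14.2 and 14.0 in CTRL cells (log2 ratio 0.37, SE 0.13, adjusted p = 0.040), and 8 of 10 alternatives lost the call.

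Among other inhibitors, TIMP3, which binds to the matrix and inhibits ADAM17, had 10.5 and 11.01 CPM in OE-WT cells and 27.2 and 27.6 in CTRL cells. The groups lay far apart, with a log2 ratio of -1.35 (SE 0.12, adjusted p = 9.7e-08), and no alternative lost the call. TIMP4 had 8.87 and 10.9 CPM in OE-WT cells against 12.2 and 12.8 in CTRL cells (log2 ratio -0.34, adjusted p = 0.130). Of the sheddases outside both families 4 of 8 passed and 2 were lower: BACE2, an aspartyl protease (log2 ratio -0.57, adjusted p = 0.00012), and ST14, the serine protease matriptase (-0.30, adjusted p = 0.0032), whose call was lost without OE-WT replicate 1 (adjusted p = 0.073).

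Genes for the maturation and transport of these enzymes fell more often than they rose. Of 17 tested, 8 were lower and 1 was higher (11.6% and 9.44% of all genes were), with a median log2 ratio of -0.36. Of genes whose protein begins with a hydrophobic segment, a class described further on, 33.5% were lower. SH3PXD2B, a scaffold of invadopodia where MMP14 is delivered, fell by 0.80 on the log2 scale (SE 0.12, adjusted p = 8.1e-05), and TSPAN15, a tetraspanin that guides ADAM10, fell by 0.62 (SE 0.08, adjusted p = 5.7e-06). PACSIN3, which binds ADAM proteins, fell by 0.70 (adjusted p = 0.0046; 0.051 with DESeq2). The iRhom genes RHBDF1 and RHBDF2, which carry ADAM17 to the surface and were named after their values were seen, fell by 0.61 and 0.55 (adjusted p = 7.1e-05 and 8.3e-05). BSG, the most abundant of the list per length, fell by 0.36 (adjusted p = 0.00098). FURIN, the convertase that removes prodomains and likewise named after its value was seen, had a log2 ratio of -0.06 (adjusted p = 0.562), and PCSK5, another convertase, was higher (0.66, SE 0.22, adjusted p = 0.035), a call that 5 of 10 alternatives lost. All 6 gamma-secretase genes, whose complex cuts the stub that shedding leaves, were tested and 5 were lower. Among them were APH1B (-0.74, adjusted p = 0.0027), PSEN2 (-0.47, adjusted p = 0.0047; 0.053 with DESeq2), NCSTN (-0.26, adjusted p = 0.0064; 0.100 without CTRL replicate 1) and PSENEN (-0.31, adjusted p = 0.041, lost in 6 of 10 alternatives). APH1A, the most abundant of them per length, had a log2 ratio of 0.02.

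Of 46 substrates of shedding 42 were tested, 24 were lower and 2 were higher, with a median log2 ratio of -0.33. Of all genes tested 11.6% were lower and 9.44% higher, and of those whose protein begins with a hydrophobic segment, a class described further on, 33.5% were lower. NOTCH3 fell by 1.22 (SE 0.11, adjusted p = 9.7e-08), VASN by 1.05 (0.09, adjusted p = 4.3e-08) and LRP1 by 1.04 (0.11, adjusted p = 4.9e-07), and no alternative lost these calls. L1CAM, with 13 to 36 counts, fell by 0.99 (0.31, adjusted p = 0.028), a call lost whichever of the 4 libraries was left out. SDC4 had 854 and 976 CPM in OE-WT cells against 804 and 748 in CTRL cells (log2 ratio 0.24, adjusted p = 0.023, lost in 6 of 10 alternatives), and KITLG, named because it was the other gene that rose, had 21.7 and 20.5 against 12.5 and 13.1. Ligands released by ADAM17 that bind the EGF receptor, named after their values were seen, were abundant: AREG had 376 and 450 CPM in OE-WT cells against 502 and 467 in CTRL cells (log2 ratio -0.23, adjusted p = 0.035), and TGFA had 156 and 174 against 165 and 149 (0.07, adjusted p = 0.535). NRG1, a substrate of ADAM19, had at most 5 counts in a library. Of 14 matrix proteins 11 were tested, 5 lower and 2 higher. Beside this stand the same 11.6% and 9.44% of all genes, and the 33.5% lower among genes with a hydrophobic segment. HSPG2 was lowest among those with a mean of at least 20 counts (-1.39, SE 0.07, adjusted p = 2.9e-11 in edgeR). LAMB3 stood at -0.77 (adjusted p = 3.2e-08), and FN1 was higher at 0.87 (adjusted p = 0.0089, 0.079 with DESeq2, lost in 3 of 10 alternatives). VTN and FBLN1, both with few counts, were also lower and COL4A2 (0.44) was the other higher gene, all named after their values were seen.

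**Figure D4:**
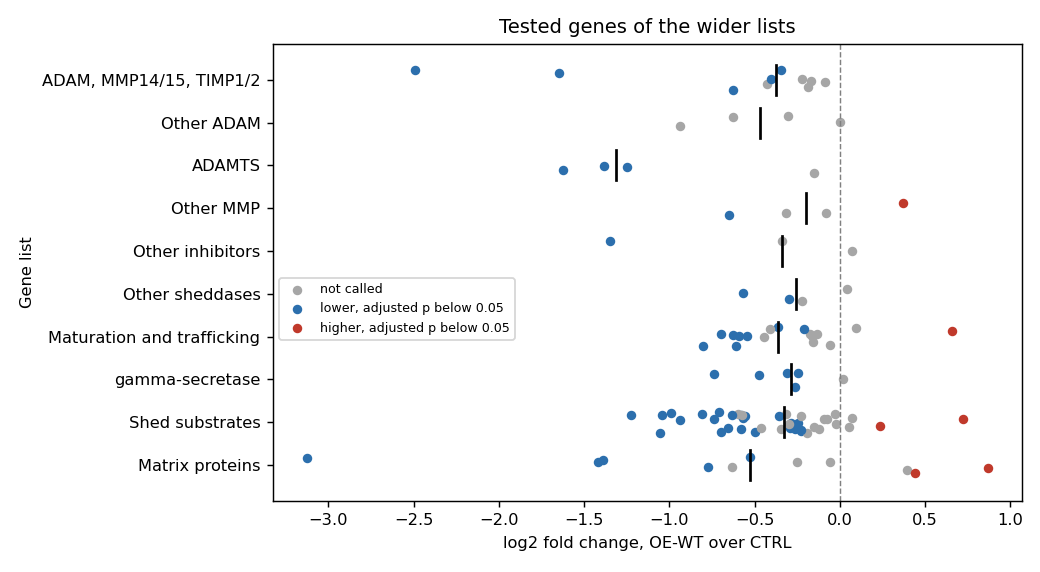
Each point is a tested gene at its log2 ratio, OE-WT over CTRL (horizontal axis), in the list named at the left, blue if lower and red if higher at an adjusted p below 0.05, with the median of each list as a black line. Vertical scatter within a list has no meaning; 24 of the 42 shed substrates are blue.

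These genes encode secreted or membrane proteins, a class marked here only roughly, by a hydrophobic segment near the start of the protein. Of 11616 tested genes with a coding sequence, 1989 had a hydrophobic segment at the N-terminus of the protein. By adjusted p, 33.5% of them were lower and 5.08% higher, and 8.86% of the others were lower. Their median log2 ratio was -0.21, and that of the others was 0.04. Such a segment was found in 9 of the 10 members, and no N-terminal stretch of MMP14 reached the hydropathy threshold. Leaving out ADAM19 as well, which was chosen for its fall, 3 of the other 8 were lower. The part of this class in the members' changes was not tested. The codons GAG and GAC, read by tRNAs that the study examined for m1A, made up from 3.74% (ADAM10) to 10.6% (MMP15) of the members' coding sequences, with 5.77% in ADAM19 and 8.42% in MMP14 against a median of 6.43% over tested genes. Members lay on both sides of the median, ADAM19 below it and MMP14 above. The paper ties these codons to translation efficiency, which transcript counts do not measure. Codons of tRNA-Ala-TGC and tRNA-Leu-CAA, which the paper also reported with more m1A, were not counted. The part of codons in the changes was not tested.

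Over the 4 libraries the genes whose log2 CPM most resembled that of ADAM19 by Pearson's r included CHCHD10 and CTSL, and those most like MMP14 were TRIM11, LTBP3 and TNFSF15. With 2 libraries per group such likeness is weak, since 433 and 405 of 10214 genes with a mean of at least 50 counts had an r above 0.99 with ADAM19 and MMP14.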

How the data were processed

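RNA sequencing libraries of OE-WT and CTRL DLD1 cells were analysed, 2 per group. The authors deposited raw counts per gene without normalization, 1 column per library. The paper's methods name Cutadapt, HISAT2 on GRCh38 and HTSeq, whereas the submitters' processing notes name HISAT2 2.2.1, featureCounts 2.0.0 and DESeq2 1.34.0; which program made the counts, the annotation release and the strand setting are not given in the sources used here. The paper describes removal of ribosomal RNA and 3 replicates per group, and the labels describe poly(A) selection, strand-marking libraries, RNA from a cleared lysate of cells washed with cycloheximide, and 2 replicates.

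GENCODE 44 (GRCh38) supplied symbols and exon lengths, with 57532 of 58302 identifiers found. Counts were filtered by group (minimum count 10), TMM-normalized and tested in edgeR 4.0.16 (R 4.3.3) with the quasi-likelihood test and Benjamini-Hochberg adjustment over 14133 genes. Standard errors are the log2 fold change over the square root of F. With 2 against 2, an exact permutation test cannot give a p below 0.333. Alternatives were RLE factors, library size only, DESeq2 1.42.0, other filters, a replicate block and each library left out. The code was tested on simulated counts. An N-terminal segment means 11 of the first 40 residues in a row with a mean Kyte-Doolittle hydropathy of 2.0 or more. The members and lists were chosen with earlier results of these data known. Named genes are the members and, per wider list, up to 4 called genes with the largest change and a mean of at least 20 counts, plus the most abundant per length; others are said to be named after their values were seen. Figures used matplotlib 3.10.9. Some genes that the rule names are not reported here.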

Additional observations from a re-analysis of the deposited data

How the results depend on the processing

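The lower calls of ADAM15, TIMP1 and TIMP2 were kept in all 10 alternatives (DESeq2 gave no adjusted p for ADAM8, itself not called). ADAM19 and MMP14 were chosen for their falls in these libraries, so nothing is read from their calls. Counting them, 5 members were lower, and 8 with library size only. ADAM9 ranged from -0.36 to 0.042 with a library left out. Over all genes 2976 had an adjusted p below 0.05 (44.8% of them higher), 1377 with DESeq2, 3184 with library size only (23.0% higher) and 1923 to 2721 with a library left out, lowest without CTRL replicate 1 and at 1974 without OE-WT replicate 1. At a raw p under 0.05 together with a log2 ratio beyond 1 in size, 445 passed, 288 with DESeq2, 738 with every gene of at least 1 count and 216 when each library had to hold 10 counts, where fewer genes were tested. Over the wider lists and markers, recomputed under settings applied to them after the data were seen, 53 genes were lower (33 with DESeq2, 35 to 50 with a library left out) and 9 higher (5 with library size only, 5 with DESeq2, 4 to 6 with a library left out). DESeq2 gave no adjusted p for 22 of the 108 wider genes tested, 8 of them called in edgeR. The causes were not tested. Uncalled genes changed sign: ADAM21 to -0.093, -0.018 and -0.0052 with library size only, every gene of at least 1 count and 10 counts demanded of each library, and between -0.65 and 0.47 with a library left out; APH1A to -0.073 and -0.0024 under the first 2 of these, and between -0.11 and 0.13; CD14 between -0.69 and 0.030. A fit on 3 libraries assumes that the lone library varies like the other group.

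Same-numbered libraries share only a number: their deviations had a correlation of -0.068 across genes. With a replicate block 2658 genes had an adjusted p below 0.05, 5 members were lower (ADAM19 and MMP14 counted), 49 genes of the wider lists were lower and 6 higher.

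Depth limits ADAM8, with 22 to 39 counts per library, and the ADAMTS genes.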
